A study of Mus musculus with 6 samples.

Results

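The genes described here are 35 genes of mouse chromosome 5. They lie in and around the segment that matches the Williams-Beuren region of human chromosome 7, and include the flanks of Galnt17. They were chosen by name and position from a fixed list. No measured value was a criterion, though earlier results of these data were known when the list was made. All 35 were matched to 1 gene identifier each, of 55487 in the count tables. RNA was sequenced from single cerebella of male mice at 14 days of age. The tested animals were 3 homozygous Galnt17 knockouts (KO, strain label Wbscr17KOKO), which carried the allele Galnt17tm1.1(KOMP)Vlcg of the Knockout Mouse Project. The part of the gene that this allele removes is not stated in the labels. They were compared with 3 wild types of the B6C3 stock (WT), which comes from a cross of C57BL/6J with C3H/He. Per the labels, the allele was first placed on C57BL/6J, where homozygotes were not born alive, and surviving homozygotes came after breeding to B6C3. The labels do not state from which strain each animal had the chromosome around Galnt17. An effect of losing Galnt17 and an effect of linked strain variants on its neighbours therefore cannot be told apart in these data.

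Loss of the human segment on 1 chromosome causes Williams-Beuren syndrome, a developmental disorder with a characteristic social and cognitive profile, heart vessel disease from elastin shortage and motor coordination problems. The segment holds genes of very different function that sit close together, among them the TFII-I transcription factor family, chromatin remodelling subunits, the cofilin kinase gene Limk1, the elastin gene Eln and the synaptic SNARE gene Stx1a. GALNT17, once called WBSCR17, encodes an enzyme of the family that starts mucin-type O-glycosylation. It lies beside the segment that is commonly deleted, next to AUTS2 and CALN1, which are expressed in neurons. In mouse, Sbds, Tyw1 and Caln1 lie at lower coordinates than Galnt17. Auts2 and, after a stretch with few genes, the other listed genes lie at higher coordinates. Which of these fall in the commonly deleted segment was not marked here, so a member is not always a Williams-Beuren gene. The farthest of the 32 genes on that side, Ywhag, lies 4599912 bases from Galnt17.

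Gene positions are given on GRCm38. The tables held 17111611 to 29840046 counts per library. Counts of Galnt17 (ENSMUSG00000034040, chr5:130872082-131308497, minus strand) itself were 72, 80 and 63 in the KO libraries, against 1119, 729 and 963 in the WT libraries (log2 fold change -3.94, SE 0.12, adjusted p = 6.18e-08). The groups did not overlap, and their order fits the labels. Adjusted p values here and below are from the quasi-likelihood test of edgeR, Benjamini-Hochberg adjusted over all genes tested, and pass below 0.05. Each of 11 cerebellar markers had at least 156.6 CPM (counts relative to library size) in each library. The summed level of the cerebellar markers was 8213 to 8315 CPM in KO and 6906 to 7692 CPM in WT, with 2 of 11 called higher, and that of 8 oligodendrocyte markers was 13777 to 14431 CPM in KO and 12485 to 12628 CPM in WT, also with 2 called higher. Choroid plexus markers differed between the groups: 11 of 12 fell and their summed level was 206.8 to 760.0 CPM in KO, against 1601 to 2897 CPM in WT. Unmapped reads made up 13.8% to 17.2% of the KO reads and 6.52% to 10.03% of the WT reads. The part of these differences in the results below was not tested. Over the measured members, the median SD of log2 CPM was 0.050 among KO animals and 0.10 among WT animals. WT replicate 1 lay farthest from the median of its group in 16 of 32 members, and WT replicates 2 and 3 in 8 each. Over genes of at least 10 CPM the libraries stood less apart. There the median absolute log2 difference from the mean of the other WT libraries was 0.11 for WT replicate 1, 0.086 for WT replicate 2 and 0.099 for WT replicate 3. Each library was left out in turn, and the fit without WT replicate 1 is given in most detail. Fewer cells of a type and less RNA per cell cannot be told apart in these bulk samples.

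Promoter sequences show what the neighbours of Galnt17 share and where they differ. RefSeq windows on GRCm38.p6, from 250 bases before to 50 bases after a transcript start, were at hand for 27 of the 35 members. For each member the window nearest to its annotated gene start was taken, and that of Por lay 19112 bases away. The windows of all genes were used without such a choice. CpG sites were dense in most of them. The ratio of observed to expected CpG was at least 0.6 in 21 of 27 windows (77.8%), against 35.8% of 32851 windows of all genes. The letters GGGCGG, read on both strands, were present in 22 of 27 windows (81.5%), against 35.7% of all windows. The letters TATAAA were on either strand of 0 of 27 windows, against 13.6% of all windows. The letters CCGGAAG were on either strand of 3 of 27 windows (11.1%), those of Tyw1, Gtf2ird2 and Fkbp6, against 8.86% of all windows. Matches of different motifs may overlap, and a match describes the letters only. The windows below were chosen because the Tyw1 window holds the start of a divergent gene pair near Galnt17, Ywhag has the highest level of all members, and Cldn4 is at the limit of detection. CpG dinucleotides are in capitals.
Tyw1, chr5:130255369-130255668, plus strand: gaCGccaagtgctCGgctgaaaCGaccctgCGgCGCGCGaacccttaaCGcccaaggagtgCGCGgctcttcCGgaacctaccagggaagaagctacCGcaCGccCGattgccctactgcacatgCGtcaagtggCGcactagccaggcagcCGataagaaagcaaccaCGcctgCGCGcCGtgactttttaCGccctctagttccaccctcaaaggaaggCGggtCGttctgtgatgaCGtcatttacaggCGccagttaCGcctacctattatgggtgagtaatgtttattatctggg
Ywhag, chr5:135934592-135934891, minus strand: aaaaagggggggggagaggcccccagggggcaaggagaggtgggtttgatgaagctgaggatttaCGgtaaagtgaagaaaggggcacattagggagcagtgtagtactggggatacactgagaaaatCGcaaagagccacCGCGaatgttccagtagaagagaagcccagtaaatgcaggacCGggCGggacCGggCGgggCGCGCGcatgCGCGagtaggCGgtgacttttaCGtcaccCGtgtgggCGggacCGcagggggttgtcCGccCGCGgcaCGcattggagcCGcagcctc
Cldn4, chr5:134946885-134947184, minus strand: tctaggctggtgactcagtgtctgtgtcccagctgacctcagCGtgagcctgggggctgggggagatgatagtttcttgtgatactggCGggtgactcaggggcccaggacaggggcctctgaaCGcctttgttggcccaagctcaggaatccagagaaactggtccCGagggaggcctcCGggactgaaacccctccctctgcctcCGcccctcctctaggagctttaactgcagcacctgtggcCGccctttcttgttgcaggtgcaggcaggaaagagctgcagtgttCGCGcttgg
The Tyw1 window has 27 CpG sites. It also covers the annotated start of Sbds, which runs the other way from a point 89 bases upstream of Tyw1. The Ywhag window has 23 CpG sites and holds the letters GGGCGG on 1 or both strands. The Cldn4 window has 9 CpG sites.

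Galnt17 fell, and none of its 32 measured neighbours passed the test in either direction: 0 rose and 0 fell of 32, against 1.66% called among all 18237 genes tested (0.784% higher and 0.872% lower). DESeq2 called 0 members too, against 1.59% of all genes called higher and 1.49% called lower by that tool. With limma-voom 0 members were called, while 154 genes were higher and 158 lower among all genes. With p unadjusted and below 0.05, 2 members were higher and 5 lower, which is 21.9% of them, against 17.6% of all genes. The 3 KO values and the 3 WT values did not overlap in 9 of 32 members (28.1%), against 23.7% of all genes tested. The median log2 fold change was -0.04 over the members and -0.01 over all genes. Among the 26 members that averaged 10 CPM or more, the median absolute log2 fold change was 0.087, against 0.083 over 10687 such genes. Without WT replicate 1 the count was 0 higher and 4 lower, as described further on.

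**Figure D1:**
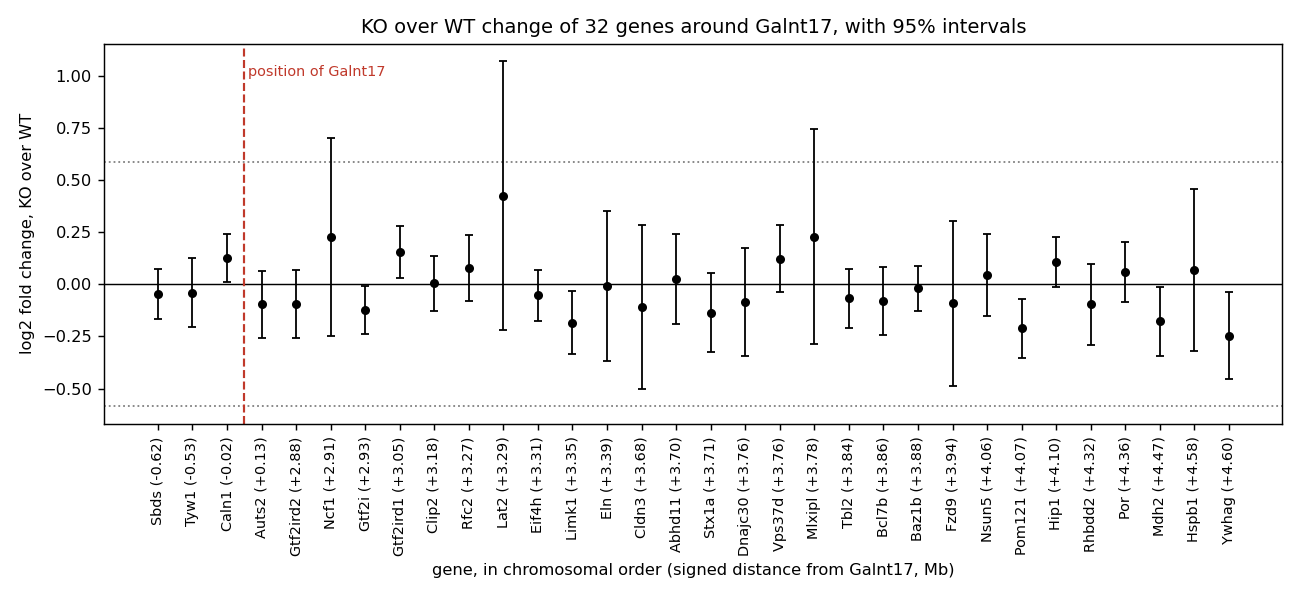
Log2 fold change of KO over WT (y axis) for the 32 measured genes in chromosomal order (x axis, with the signed distance from Galnt17 in Mb). Bars are 95% intervals from edgeR, the dashed line marks the place of Galnt17 and the dotted lines mark a 1.5-fold change. Points run between -0.25 and 0.42 and lie on both sides of 0 along the segment.

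The intervals give the size of change that the data leave room for. The 95% interval of the fold change lay within 1.5-fold in both directions for 29 of 32 members. The exceptions at 1.5-fold were Ncf1, Lat2 and Mlxipl, all of low level. The interval lay within 2-fold for 31 members, with Lat2 as the exception. It was narrowest for Baz1b, at 0.916 to 1.06-fold, and widest for Lat2, at 0.859 to 2.10-fold. Of 31 pairs of adjacent measured members 18 had opposite signs, and the longest runs of 1 sign held 4 genes.

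None of the 4 nearest measured genes passed the test, and Caln1 alone among them had groups that did not overlap. Caln1 (ENSMUSG00000060371, chr5:130369455-130847412, plus strand), a calmodulin-like calcium-binding protein of neurons, ends 24670 bases from Galnt17. It had 351, 339 and 342 CPM in KO and 322, 306 and 318 CPM in WT. All KO values lay above all WT values, a difference of 1.09-fold (interval 1.01 to 1.18) that did not pass (adjusted p = 0.253). Auts2 (ENSMUSG00000029673, chr5:131437333-132543344, minus strand), a nuclear regulator of transcription and of neurite growth, has its nearer edge 128836 bases away on the other side. On the minus strand that edge is the end of the gene, and its start is the far edge. It had 74.4, 67.1 and 69.2 CPM in KO and 69.0, 82.4 and 74.2 CPM in WT. Its groups overlapped, and the log2 fold change was -0.10 (SE 0.07, adjusted p = 0.516). Tyw1, an enzyme that makes the wybutosine base of phenylalanine tRNA, had 24.3, 23.6 and 26.2 CPM in KO and 24.8, 24.9 and 26.4 CPM in WT. Its divergent partner Sbds, a ribosome maturation factor, had 50.1, 51.1 and 50.1 CPM in KO and 54.2, 52.2 and 49.9 CPM in WT. The groups overlapped for both genes (adjusted p = 0.813 and 0.690). Per exon length Sbds stood at 24.8 RPKM in KO and 25.6 RPKM in WT, above Tyw1 at 3.34 RPKM in KO and 3.44 RPKM in WT.

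The segment encodes 6 transcription and chromatin factors, of which 0 passed, 2 had higher and 4 lower point estimates. The TFII-I family has 3 members here. Gtf2i (ENSMUSG00000060261, chr5:134237834-134314760, minus strand), its founding member, had 278, 276 and 277 CPM in KO and 291, 306 and 308 CPM in WT. The groups did not overlap, and the log2 fold change was -0.12 (SE 0.05, adjusted p = 0.257). Gtf2ird1 (ENSMUSG00000023079, chr5:134357656-134456716, minus strand), a relative with its own DNA-binding repeats, differed the other way, with 43.7, 44.7 and 44.5 CPM in KO and 38.7, 39.8 and 40.8 CPM in WT. Here too the groups did not overlap and the test was not passed (log2 fold change 0.16, SE 0.06, adjusted p = 0.190). Gtf2ird2, the family member closest to Galnt17 at 2.88 Mb, had 25.97, 26.6 and 26.3 CPM in KO and 26.01, 28.5 and 29.7 CPM in WT, with overlapping groups (adjusted p = 0.538).
Baz1b, the bromodomain subunit of the WICH remodelling complex, averaged 168 ± 1.82 CPM in KO and 171 ± 3.29 CPM in WT (SD, n = 3 each). Bcl7b, a subunit of SWI/SNF complexes, averaged 42.2 ± 1.61 CPM in KO and 44.7 ± 3.94 CPM in WT. Mlxipl, the carbohydrate-responsive factor ChREBP, was the lowest measured member per exon length, where 43, 41 and 26 counts in KO stood against 31, 22 and 26 in WT. Its KO values of 1.29 to 1.76 CPM and WT values of 1.26 to 1.29 CPM touched without overlapping, and its interval ran from 0.819 to 1.68-fold.

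Genes of the cytoskeleton and of membrane traffic included 1 of the larger differences. Limk1 (ENSMUSG00000029674, chr5:134656039-134688598, minus strand), the kinase that inactivates cofilin, had 78.3, 73.0 and 69.4 CPM in KO and 79.6, 81.0 and 90.6 CPM in WT. All KO values lay below all WT values, by 1.14-fold on average (log2 fold change -0.18, SE 0.07), without passing (adjusted p = 0.202). Clip2, which binds the plus ends of microtubules, averaged 78.4 ± 3.18 CPM in KO and 78.2 ± 4.56 CPM in WT (adjusted p = 0.977). Stx1a, a SNARE of synaptic vesicle fusion, had 36.6, 36.4 and 35.8 CPM in KO and 34.4, 43.8 and 41.6 CPM in WT. The KO values were tight, while WT replicate 1 lay below them and the other WT libraries above them (adjusted p = 0.439). Vps37d, of the ESCRT-I sorting complex, and Hip1, a clathrin adaptor that binds huntingtin, had higher point estimates with groups that did not overlap. Vps37d averaged 26.5 ± 0.823 CPM in KO and 24.4 ± 1.14 CPM in WT (adjusted p = 0.409), and Hip1 115.6 ± 3.70 CPM in KO and 107 ± 4.69 CPM in WT (adjusted p = 0.341).

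Of 7 genes with roles in RNA, DNA and metabolism 0 passed, and Mdh2 was the only one with an unadjusted p below 0.05. Mdh2 (ENSMUSG00000019179, chr5:135778480-135790398, plus strand), the malate dehydrogenase of the mitochondrial citric acid cycle, had 297, 279 and 287 CPM in KO and 289, 339.7 and 349 CPM in WT. WT replicate 1 fell among the KO values and the other WT libraries above them (log2 fold change -0.18, SE 0.07, adjusted p = 0.252). Por, which passes electrons to cytochrome P450 enzymes, averaged 52.2 ± 1.02 CPM in KO and 50.1 ± 3.87 CPM in WT. The mitochondrial hydrolase gene Abhd11 averaged 17.2 ± 1.64 CPM in KO and 16.8 ± 0.906 CPM in WT, and the mitochondrial DnaJ gene Dnajc30 8.87 ± 0.605 CPM in KO and 9.40 ± 0.780 CPM in WT. The translation factor gene Eif4h, the third-highest member per length, averaged 367 ± 5.18 CPM in KO and 381 ± 16.6 CPM in WT. Nsun5, a methyltransferase of the large ribosomal RNA, averaged 19.7 ± 1.47 CPM in KO and 19.0 ± 1.12 CPM in WT. Rfc2, a subunit of the clamp loader of DNA replication, averaged 48.7 ± 1.15 CPM in KO and 46.2 ± 4.48 CPM in WT. Adjusted p values of these 6 genes lay between 0.602 and 0.916.

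Signalling and structural genes completed the set. Ywhag (ENSMUSG00000051391, chr5:135908409-135934616, minus strand), which encodes the 14-3-3 gamma protein that binds phosphorylated partners, had 566, 572 and 549.7 CPM in KO and 565, 676 and 760.4 CPM in WT. WT replicate 1 lay among the KO values and the other WT libraries above them (log2 fold change -0.25, SE 0.09, adjusted p = 0.215). This was the most negative estimate among the members. Pom121 (ENSMUSG00000053293, chr5:135376141-135394546, minus strand), a membrane protein of the nuclear pore, had the smallest adjusted p of all members, 0.126. It had 56.1, 54.0 and 54.1 CPM in KO and 58.2, 65.5 and 66.7 CPM in WT, with groups that did not overlap and a 1.16-fold lower level in KO. Tbl2, a WD40 protein of the endoplasmic reticulum, averaged 46.3 ± 1.13 CPM in KO and 48.4 ± 3.28 CPM in WT. The rhomboid-family gene Rhbdd2 averaged 31.9 ± 2.80 CPM in KO and 34.2 ± 2.85 CPM in WT, and the small heat shock gene Hspb1 ran from 9.76 to 11.9 CPM in KO and from 7.66 to 12.55 CPM in WT. The Wnt receptor gene Fzd9 averaged 5.59 ± 0.560 CPM in KO and 6.01 ± 1.27 CPM in WT.

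**Figure D2:**
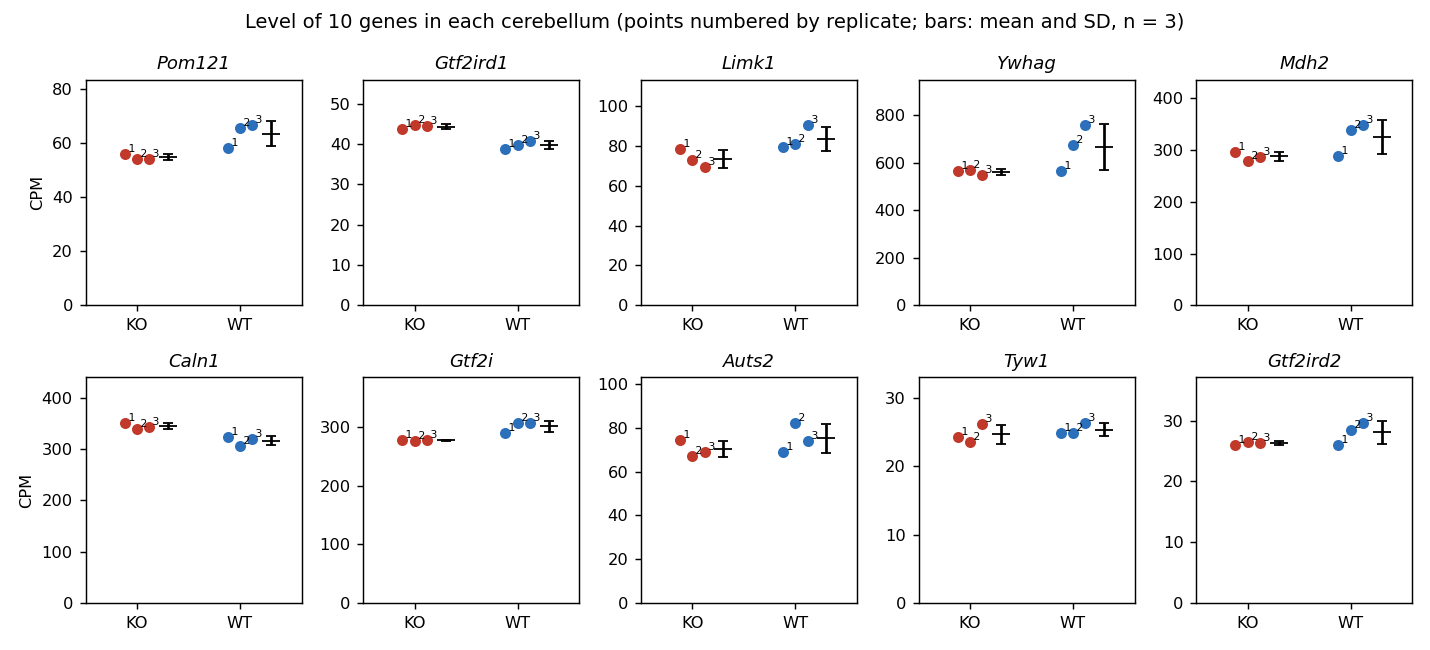
Level in CPM (y axis) of 10 genes in each KO and WT cerebellum (x axis), with points numbered by replicate and bars for the mean and SD of 3 animals. Groups are separate for Pom121, Gtf2ird1, Limk1, Caln1 and Gtf2i, while for Ywhag and Mdh2 WT replicate 1 sits at the KO level.

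Of the members known mainly from other cell types 0 passed, and all but Eln were at low levels. Eln, the elastin of vessel walls, had 51.9, 56.3 and 60.5 CPM in KO and 60.9, 38.7 and 69.0 CPM in WT, so that WT replicate 2 was the lowest of all libraries (adjusted p = 0.986). None of 9 measured endothelial and mural markers and none of 8 meningeal fibroblast markers passed the edgeR test, with 1 lower and 2 higher by unadjusted p. The claudin gene Cldn3, of epithelial tight junctions, averaged 3.57 ± 0.380 CPM in KO and 3.86 ± 0.598 CPM in WT (adjusted p = 0.788), although 11 of 12 choroid plexus markers fell in the same libraries. Ncf1, a subunit of the phagocyte NADPH oxidase, was counted 73, 62 and 48 times in KO, against 54, 27 and 52 times in WT, with overlapping groups (adjusted p = 0.615). Lat2, an adaptor of immune receptors, was counted 29, 29 and 20 times in KO, against 21, 16 and 12 times in WT (log2 fold change 0.42, SE 0.29, adjusted p = 0.476). None of 10 microglia markers passed the edgeR test, with 0 at an unadjusted p under 0.05, and their summed level was 142 to 153 CPM in KO and 141 to 159 CPM in WT.
The other 3 members were too low to be tested. Counts of Cldn4 were 0, 1 and 0 in KO, against 0 in each WT library, and a count of 0 allows up to 0.175 CPM in the shallowest library (3 counts). Fkbp6, known from male germ cells, was counted 2, 2 and 1 times in KO, against 0, 1 and 0 times in WT. The E3 ubiquitin ligase gene Trim50 was counted 2, 1 and 1 times in KO, against 7, 0 and 1 times in WT. These limits cover counting error only.

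Among the fits that left out 1 library, members were called only without WT replicate 1. Without it, Ywhag (log2 fold change -0.35, adjusted p = 0.00838), Pom121 (-0.27, adjusted p = 0.0113), Mdh2 (-0.26, adjusted p = 0.0124) and Stx1a (-0.24, adjusted p = 0.0333) were lower in KO. These 4 of 32 members make 12.5%, against 5.24% of all genes that were called lower without that library and 5.22% called higher. Unadjusted p was below 0.05 for 10 of 32 members (2 higher, 8 lower), against 27.9% of all genes. With any other library left out, 0 members were called. Ywhag also passed when no filter on low counts was used (adjusted p = 0.0147), in a fit that called 2.4% of all genes higher and 2.45% lower. Calls among all genes rose in both directions, from 143 higher and 159 lower in all 6 libraries to 959 higher and 962 lower without WT replicate 1. The 4 members called in that fit were all lower. With this library left out, the estimates of Caln1 (0.14), Gtf2ird1 (0.14), Gtf2i (-0.15) and Limk1 (-0.22) kept their direction without passing, the last at an adjusted p of 0.0635.

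**Figure D3:**
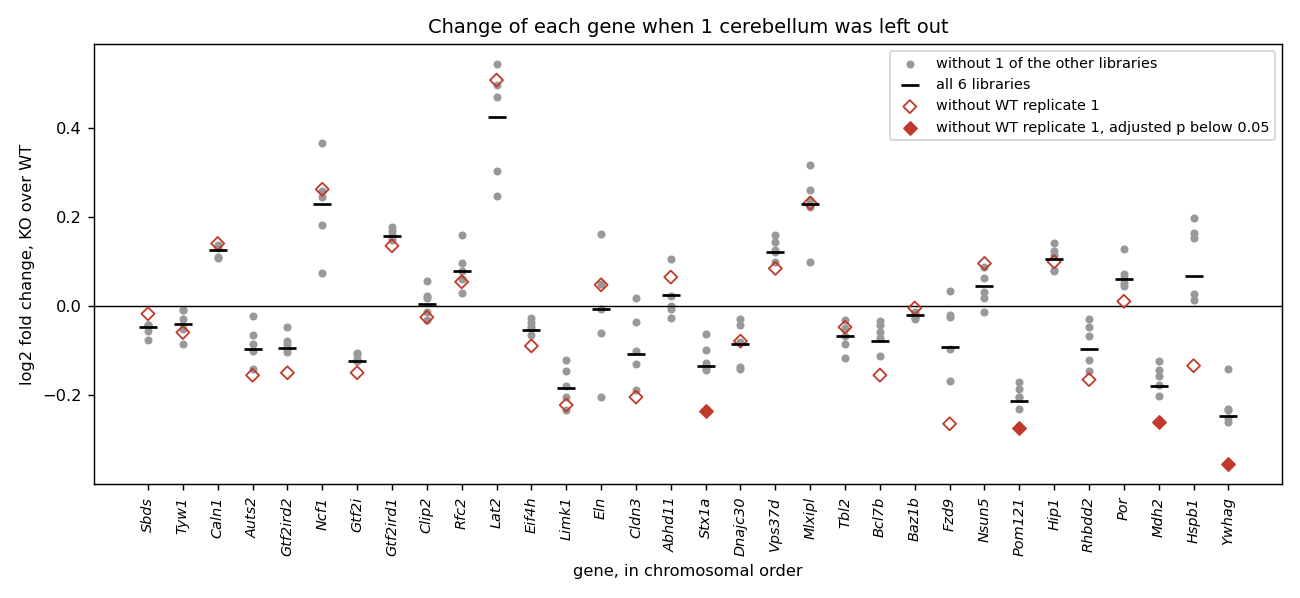
Log2 fold change of KO over WT (y axis) of 32 genes in chromosomal order (x axis) with all 6 libraries (bars), without WT replicate 1 (diamonds) and without each other library (grey points). Filled diamonds mark adjusted p below 0.05 without WT replicate 1, which holds for Stx1a, Pom121, Mdh2 and Ywhag.

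Levels differed far more between the members than between the groups. In RPKM (CPM per kilobase of merged exons), 15 members were at 10 or more on average, 14 between 1 and 10 and 6 below 1. Ywhag led with 102.2 ± 2.07 RPKM in KO and 121 ± 17.8 RPKM in WT, before Mdh2 with 80.8 ± 2.51 RPKM in KO and 91.5 ± 9.14 RPKM in WT. Eif4h followed with 66.1 ± 0.934 RPKM in KO and 68.5 ± 2.98 RPKM in WT, then Caln1 with 32.9 ± 0.591 RPKM in KO and 30.1 ± 0.825 RPKM in WT. The libraries of Ywhag, Mdh2 and Eif4h did not overlap with those of the next gene down. From Bcl7b, at 17.6 RPKM in KO and 18.6 RPKM in WT, to Pom121, at 9.81 RPKM in KO and 11.4 RPKM in WT, each gene overlapped its neighbour in the order. Auts2, whose gene spans 1106012 bases, was at 3.07 ± 0.164 RPKM in KO and 3.29 ± 0.295 RPKM in WT. Its merged exons cover 22890 bases, which lowers RPKM at a given CPM, and it averaged 70.2 CPM in KO and 75.2 CPM in WT. Galnt17, between Caln1 and Auts2 on the chromosome, stood at 0.318 RPKM in KO and 4.82 RPKM in WT. The median over the measured members was 8.22 RPKM, against 4.46 RPKM over all genes tested.
Members with few promoter CpG sites were found at low and at high levels. Of the 6 members with a CpG ratio under 0.6, Cldn4, Ncf1 and Cldn3 were below 3 RPKM, while Rhbdd2 and Hspb1 were at 4.39 and 10.6 RPKM and Caln1 at 31.5 RPKM over the 6 libraries. Fkbp6, with 6 counts in all, has a ratio of 0.926.

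**Figure D4:**
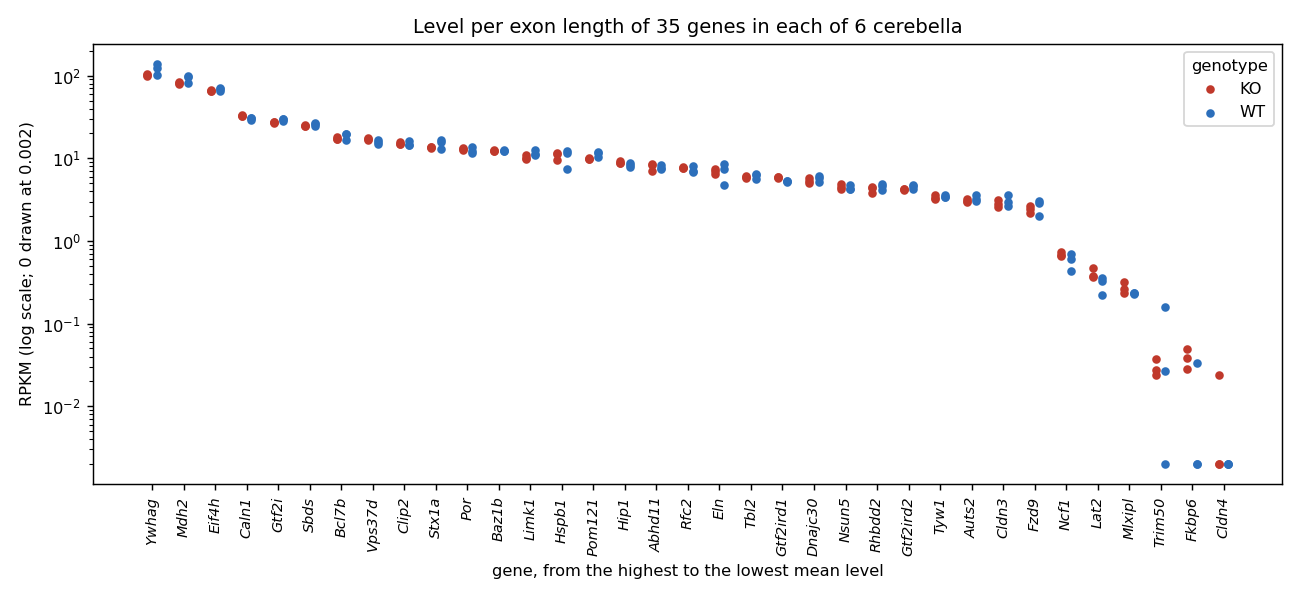
Level in RPKM (y axis, log scale) of the 35 genes in each of the 3 KO and 3 WT cerebella, from the highest to the lowest mean (x axis). Values of 0 are drawn at 0.002. Ywhag stands highest and the untested Trim50, Fkbp6 and Cldn4 stand lowest in both groups.

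Several members overlap each other on opposite strands, which limits what their counts mean. Exon bases were shared with another annotated gene in 15 of 35 members, up to 43.1% in Abhd11 and 36.3% in Lat2. The deposited column without strand leaves out reads that fall on more than 1 gene. RPKM still divided by all exon bases, so the levels of such members may be too low. Adding the strand columns counted a read shared by genes on opposite strands once for each gene. Counts rose to 3.02 times those without strand for Lat2, 2.56 for Dnajc30, 1.69 for Abhd11 and 1.52 for Nsun5. Lat2 overlaps Rfc2, Dnajc30 overlaps Bud23, Nsun5 overlaps Pom121 and Gtf2ird2 overlaps Ncf1. Each added read of a pair was thus counted for both genes and may belong to either. Estimates with the added reads mix the genes of a pair. With the added reads 0 members were called by edgeR, while 170 genes were higher and 162 lower among all genes. The log2 fold change of Lat2 was then 0.070, against 0.42 without them, that of Ncf1 0.13 against 0.23, and that of Dnajc30 -0.16 against -0.09.

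The other measured genes between Sbds and Ywhag and the other listed genes of the neighbourhood also stayed below the threshold. Outside that stretch only listed genes were counted, and called genes that are not on the list lay beyond Ywhag. Between Sbds and Ywhag, 5.69 Mb of chromosome 5, the annotation lists 132 genes, of which 48 were measured and 1 was called, Galnt17 itself. The stretch of 1.64 Mb between Auts2 and Gtf2ird2 has 15 annotated genes, of which 3 were measured and 0 called. The 34 further listed genes reach beyond Ywhag, and the list leaves out called genes there, such as 4933404O12Rik. Counts over the list therefore describe the chosen genes only. Of the 34 genes, 33 were matched and 27 measured, and 0 passed in edgeR or DESeq2. By unadjusted p, 2 were higher and 0 lower (7.41%, against 17.6% of all genes). Those were Stag3, a cohesin subunit of meiosis that lies beyond Ywhag, at 6.08 ± 0.625 CPM in KO and 3.87 ± 0.259 CPM in WT (adjusted p = 0.0640), and Srrm3, a splicing factor of neurons, at 129 ± 2.89 CPM in KO and 117 ± 3.21 CPM in WT (adjusted p = 0.185). Stag3 passed without WT replicate 1 (adjusted p = 0.0288) and without a low-count filter (adjusted p = 0.0142). The nearest called genes, named by their position, were the noncoding 4933404O12Rik, 5.61 Mb from Galnt17 and lower at 8.51 ± 0.956 CPM in KO and 13.2 ± 0.562 CPM in WT (adjusted p = 0.0244), and on the other side the microRNA gene Mir703, 32.4 Mb away and higher at 1.48 ± 0.268 CPM in KO and 0.123 ± 0.0569 CPM in WT (adjusted p = 0.00172).

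Genes that work with the members also stayed below the threshold, with 0 of 85 measured partners called in edgeR and limma-voom. Among all genes edgeR called 1.66%, and limma-voom called 154 higher and 158 lower. By unadjusted p below 0.05, 1 was higher (1.18%) and 10 lower (11.8%), against 8.57% higher and 8.99% lower among all genes. The median log2 fold change of the partners was -0.07, against -0.01 over all genes. DESeq2 called 4 lower and 0 higher, against 1.49% of all genes called lower in that test. Txnip, a target of ChREBP and its partner Mlx, had 51.4, 58.8 and 54.5 CPM in KO and 62.6, 74.6 and 81.6 CPM in WT (log2 fold change -0.41, SE 0.09, adjusted p = 0.0593). Its groups did not overlap, and it passed in DESeq2 (adjusted p = 0.00323). Usf1, a transcription factor that binds E-boxes, averaged 73.9 ± 2.74 CPM in KO and 65.2 ± 1.49 CPM in WT (adjusted p = 0.124). Among 9 partners of Stx1a at the synaptic vesicle 0 passed in edgeR and 3 were lower by unadjusted p. All 9 estimates were negative, with a median of -0.15, against 51.5% negative estimates among all genes. Over all 85 measured partners 72.9% of the estimates were negative. The other partner lists ran from 25% (NADPH oxidase genes) to 87.5% (metabolic partners). The complexin gene Cplx2 averaged 641 ± 42.7 CPM in KO and 750.1 ± 42.1 CPM in WT (adjusted p = 0.140). The 14-3-3 gene Ywhab, a relative of Ywhag, averaged 456 ± 8.80 CPM in KO and 529 ± 32.8 CPM in WT (adjusted p = 0.119). Cplx2 and Ywhab also passed in DESeq2. Tsg101, the core subunit of ESCRT-I beside Vps37d, averaged 71.5 ± 2.62 CPM in KO and 80.0 ± 1.55 CPM in WT (adjusted p = 0.151). Trmt12, which acts after Tyw1 in wybutosine synthesis, averaged 12.6 ± 0.344 CPM in KO and 15.9 ± 1.04 CPM in WT (adjusted p = 0.109). Without WT replicate 1, 14 partners were lower (16.5% of the 85) and 1 higher, Usf1, against 5.24% of all genes called lower and 5.22% called higher in that fit. In edgeR, 0 of 6 replication genes, 0 of 12 actin and microtubule genes, 0 of 4 NADPH oxidase genes and 0 of 8 metabolic partners passed, with 0 in each of these lists below 0.05 by unadjusted p.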

How the data were processed

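RNA of 6 cerebella was sequenced, 3 KO and 3 WT, and the authors deposited 1 table of raw counts per gene for each animal. The counts were made with STAR 2.7.5a on mm10/GRCm38, per the submitters' processing notes, which also name edgeR 3.12. The labels name no counting options. The column without strand was used, since the strand columns split the counts evenly (49.9% to 50.0% in the first). Reads not assigned to 1 gene (ambiguous ones were 3.95% to 4.44%) stayed out of library sizes. Gene names, positions and exon lengths came from GENCODE M21 on GRCm38, which matched 99.5% of identifiers.

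All genes were fitted with the two-sided quasi-likelihood test of edgeR 4.0.16 under R 4.3.3, with TMM scaling and filterByExpr (minimum count 10, total 15). Benjamini-Hochberg adjustment ran over 18237 genes with a threshold of 0.05. SEs and 95% intervals came from each gene's F statistic and log2 fold change. CPM and RPKM used the TMM library sizes. DESeq2 1.42.0, limma-voom (limma 3.58.1), other scalings, filters and columns, and fits leaving out 1 library were alternatives. The fitting code was also run on simulated counts, with 1 dispersion for all genes and both groups and no low-count filter. That setting differs from these data, and its outcome is not used here. Totals of 17111611 to 29840046 counts set the precision. Replicates are separate animals, numbered by accession only as names. Every member was to be accounted for, with values of each library for Galnt17, the 2 nearest members on each side, members at an unadjusted p under 0.05 and the highest and lowest measured member. Other members and genes given by library were chosen after their values were seen. From other lists, called genes and up to 2 with the smallest p were to be named. Genes found in alternatives were named after their values were seen. The results of some genes are not reported here. The members and lists were chosen with earlier results of these data known.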

Additional observations from a re-analysis of the deposited data

How the results depend on the processing

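Over 13 alternatives, 24 of 32 measured members kept the sign of their log2 fold change in every setting in which they were measured, and 8 did not. No estimate with a changed sign passed. Eln was at 0.014 with upper-quartile scaling, 0.00088 with the filter at 1 CPM in 3 libraries, 0.0029 in DESeq2 and 0.018 in limma-voom, and between -0.20 and 0.16 with 1 library left out (0.051 without KO replicate 1, 0.048 without WT replicate 1 and 0.16 without WT replicate 3). Baz1b was at 0.00063 with upper-quartile scaling and Clip2 at -0.00098 with the strand columns added. With 1 library left out, Clip2 ran from -0.030 (without KO replicate 1, -0.025 without WT replicate 1 and -0.012 without WT replicate 2) to 0.057, Abhd11 from -0.027 (without KO replicate 3, -0.0060 without WT replicate 2) to 0.11, Nsun5 from -0.013 (without KO replicate 3) to 0.096, Hspb1 from -0.13 (without WT replicate 1) to 0.20, Cldn3 from -0.20 to 0.018 (without WT replicate 2) and Fzd9 from -0.26 to 0.034 (without WT replicate 3). Galnt17 passed in all 13, with -4.05 to -3.78 with 1 library left out. The members' median ran from -0.05 to -0.02 with 1 library left out.

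Among members, 1 was lower without a low-count filter (Ywhag), and 0 to 4 were lower and 0 higher with 1 library left out. Among the listed neighbours, 1 was higher without that filter and 0 to 1 with 1 library left out. Among partners, 4 were lower in DESeq2, 5 without the filter and 1 with the strand columns added, and 0 to 14 were lower and 0 to 1 higher with 1 library left out. Over all genes DESeq2 called 290 higher and 272 lower, the fit without a filter 803 and 820, and fits without 1 library 28 to 959 higher and 53 to 962 lower, with the highest counts without WT replicate 1 and the lowest without KO replicate 2. There were 39 higher and 79 lower without KO replicate 1, 43 and 82 without KO replicate 3, and 58 and 79 without WT replicate 2. The cause was not tested. No paired analysis was possible because the labels number no replicates, and the numbers used here are only names in accession order. Depth limits Lat2, Ncf1 and Mlxipl, whose intervals pass 1.5-fold, and the 3 members that were not measured.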
